A study of Homo sapiens with 12 samples.

Results

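The genes described here make cholesterol and fatty acids or control that synthesis, and were followed in DU145 prostate cancer cells with and without the small GTPase RAC1. The set holds 32 genes of the 56832 in the expression table, taken by gene symbol: 7 enzymes that build isoprenoid units from acetyl-CoA (the mevalonate enzymes), 11 enzymes that turn those units into cholesterol (the sterol enzymes), 6 regulators of the SREBP transcription factors and sterol carriers, and 8 enzymes of fatty acid synthesis. All 32 symbols were found, and 31 passed the level filter used for testing (line means of 1 TPM or more in at least 1 genotype, where TPM counts transcripts per 1000000). The gene that did not pass is SREBF1, at 0 to 0.687 TPM.

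DU145 is an established cell line from a brain metastasis of a prostate carcinoma. RNA was sequenced from 6 lines grown in RPMI medium with 10% FBS: the parental cells, 2 clones from the non-targeting guide sgNTC_1 (genotype WT, called RAC1-positive here together with the parental cells), 1 knockout clone from the guide sgRAC1_1 (sgRAC1 clone 1) and 2 from the guide sgRAC1_2 (sgRAC1 clones 2 and 3). The edited lines were made by transfecting complexes of guide RNA and Cas9 and expanding single cells, so each edited line is 1 clone and carries whatever else distinguishes that clone, and nothing in the labels describes an agent added to the cultures. Each line has 2 libraries, called biological replicates in the labels, of which replicate 1 is batch 1 and replicate 2 is batch 2. The question is which of these genes differ in level when RAC1 is lost. The labels do not say how the replicates of a line were grown, so p-values from libraries within a line measure only the spread between those libraries.

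Animal cells build cholesterol from acetyl-CoA through mevalonate, the isoprenoid farnesyl diphosphate, squalene and lanosterol. The same isoprenoid branch supplies the geranylgeranyl group that anchors RAC1 in membranes. Transcription of most of these enzymes is driven by SREBP proteins, which are held in the endoplasmic reticulum by SCAP and the INSIG proteins while sterols are plentiful, and are released for cleavage and entry into the nucleus when sterols run low.

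The promoters of the set were searched for 4 short motifs. Of the 32 genes, 28 had an entry in the RefSeq promoter table (build GRCh38.p14, 250 bases before to 50 after each listed start). Some genes have several starts (39 promoters for the 28 members, 34961 for 27195 genes), and a gene counts if any of them matches. FDFT1, SQLE, ACAT2 and FASN did not match. On either strand, the letters of a sterol regulatory element (TCACNCCAC) were found in 1 of the 28 genes, SREBF2, which is 3.57% against 1.39% of all genes in the table. The CCAAT box (CCAAT), the site of the factor NF-Y that often works beside SREBP, was found in 21 of 28 (75%) against 39.7% of all genes. The GC box (GGGCGG), a site of Sp1, was found in 27 of 28 (96.4%) against 48.4%, and the E-box CACGTG in 4 of 28 (14.3%) against 8.79%. Counted by promoter, the CCAAT box was in 64.1% of the members' promoters against 34.6%. By promoter the GC box was in 89.7% against 45%, the E-box in 12.8% against 7.27% and the sterol element in 2.56% against 1.13%. None of the 4 motifs contains another. A match describes the letters only, and other spellings of an element were not searched. All genes here means those with a promoter entry, whether or not expressed in DU145. The shares among expressed genes were not computed.

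Printed here are the 250 bases before a start of 4 members. They are SREBF2, the only 1 of the 28 searched members with the letters of the sterol element, and 3 members to which the expression results below return. Capitals mark the sterol element and the CCAAT boxes, read as CCAAT or, on the other strand, ATTGG. The regions are chr22:41832855-41833104 (plus strand) for SREBF2, chr5:43313413-43313662 (minus strand) for HMGCS1, chr4:165327419-165327668 (plus strand) for MSMO1 and chr11:65111622-65111871 (plus strand) for TM7SF2, all RefSeq, GRCh38.p14.
SREBF2: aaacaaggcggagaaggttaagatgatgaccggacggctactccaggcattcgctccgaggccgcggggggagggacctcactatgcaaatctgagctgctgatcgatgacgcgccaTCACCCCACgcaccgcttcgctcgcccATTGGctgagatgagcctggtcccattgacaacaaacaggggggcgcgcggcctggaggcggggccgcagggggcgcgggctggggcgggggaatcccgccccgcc
HMGCS1: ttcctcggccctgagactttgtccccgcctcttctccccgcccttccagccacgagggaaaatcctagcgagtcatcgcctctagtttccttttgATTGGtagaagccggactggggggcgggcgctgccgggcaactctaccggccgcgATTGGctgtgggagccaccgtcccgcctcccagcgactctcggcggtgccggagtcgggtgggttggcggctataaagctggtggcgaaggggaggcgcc
MSMO1: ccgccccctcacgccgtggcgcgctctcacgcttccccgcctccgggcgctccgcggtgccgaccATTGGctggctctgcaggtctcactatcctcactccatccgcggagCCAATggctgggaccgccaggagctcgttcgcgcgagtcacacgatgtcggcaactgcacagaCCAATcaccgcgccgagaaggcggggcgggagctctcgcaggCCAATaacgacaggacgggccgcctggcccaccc
TM7SF2: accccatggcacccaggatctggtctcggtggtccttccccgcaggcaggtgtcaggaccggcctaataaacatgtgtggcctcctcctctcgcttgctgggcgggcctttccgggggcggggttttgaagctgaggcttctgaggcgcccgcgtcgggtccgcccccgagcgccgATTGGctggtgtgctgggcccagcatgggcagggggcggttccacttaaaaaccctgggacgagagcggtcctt
The MSMO1 window holds 4 CCAAT boxes, the HMGCS1 window 2 and the TM7SF2 window 1, while the SREBF2 window holds 1 beside its sterol element. Where a gene has several starts, the window printed is the one with the most marked sites, sterol elements first. Another HMGCS1 start (chr5:43313132-43313431) held GC boxes but no CCAAT box.

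RAC1 itself checks the labels. Its level was 36.5 to 59.2 TPM in the 6 knockout libraries and 149 to 202 TPM in the 6 RAC1-positive libraries, with no overlap. Line means were 46.2 ± 9.14 TPM (SD, n = 3 lines) against 172 ± 4.60 TPM, so the knockout lines kept 26.9% of the transcript (limma, log2 difference -1.89, SE 0.14, adjusted p = 0.0467). Of 29 other settings run, 19 did not call RAC1, among them both other scalings, no filter and a pseudocount of 0.1 (highest adjusted p 0.37), while its log2 difference stayed between -2.04 and -1.78. Values sum to 1000000 TPM in every library, so read depth is unknown and no counting interval can be given. The libraries had between 20470 and 25156 genes above 0, apart from sgNTC clone 2 replicate 1, which had 13608 and was the only RAC1-positive library in which members were listed at 0 (SREBF2, SCAP, TM7SF2 and ACSS2). Results that rest on that library are given with and without it. The epithelial markers summed to 372 to 752 TPM in knockout and 273 to 802 TPM in RAC1-positive libraries. Among them CDH1 was 7.04 to 21.0 TPM in knockout and 1.99 to 6.25 TPM in RAC1-positive libraries, with no overlap. The authors' deposited table calls CDH1 (log2 fold change 1.78, adjusted p = 1.74e-09) and EPCAM (0.83, adjusted p = 2.67e-05) higher in knockout. It does not call the other epithelial markers, of which KRT18 goes the other way (-0.96, adjusted p = 0.130). KRT8 is at 0.23 (adjusted p = 0.475) and KRT19 at 0.37 (adjusted p = 0.185) there. KLK3 was at 0 in all 12 libraries. Markers of fibroblasts, endothelium and basal epithelium summed to at most 0.791 TPM in any library. The immune list summed to 1.64 to 7.90 TPM in the knockout libraries and 0 to 1.08 TPM in the others, with PTPRC and CD3E at 0 in all of them. Of the 4 neuroendocrine markers only ENO2 had a mean of 1 TPM or more, and the list summed to 8.90 to 11.7 TPM in knockout and 3.89 to 9.34 TPM in RAC1-positive libraries. The adipocyte list summed to 10.7 TPM in sgRAC1 clone 2 replicate 1 and at most 0.870 TPM elsewhere. The part of these lists in the results was not tested. In bulk RNA, fewer cells of a type and less RNA per cell cannot be told apart.

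Across the 3 knockout and 3 RAC1-positive lines, no member of the set passed the test in either direction. TPM values were compared on the log2(TPM + 1) scale with limma, 1 value per line and Benjamini-Hochberg adjustment over 17367 genes. Of 31 members tested, 0 were higher and 0 lower at an adjusted p under 0.05, against a background of 0% of all genes called higher and 0.00576% lower (1 gene, RAC1). The lowest adjusted p of a member was 0.246, and 5 members had an unadjusted p under 0.05 (13.0% of all genes did). The differences were above 0 for 25 of the 31, with a median of 0.16 on the log2 scale, beside 53.3% of all genes and a median of 0.02. Leaving out 1 library or line gave medians from 0.11 (without sgRAC1 clone 3) to 0.25 (without sgNTC clone 2, or without parental replicate 1). For 4 members (12.9%), TM7SF2, INSIG2, ACLY and ACSS2, the 3 knockout lines all lay above the 3 RAC1-positive lines, close to the 12% of all genes that did so. None had them all below (8.52% of all genes). No member had its 6 knockout libraries all above or all below the 6 RAC1-positive ones (background 2.14% and 0.714%). Without sgNTC clone 2 replicate 1, MSMO1 and INSIG2 did so upward (background 3.51%) and none downward (background 1.32%). The map of member levels shows the set library by library.

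**Figure D1:**
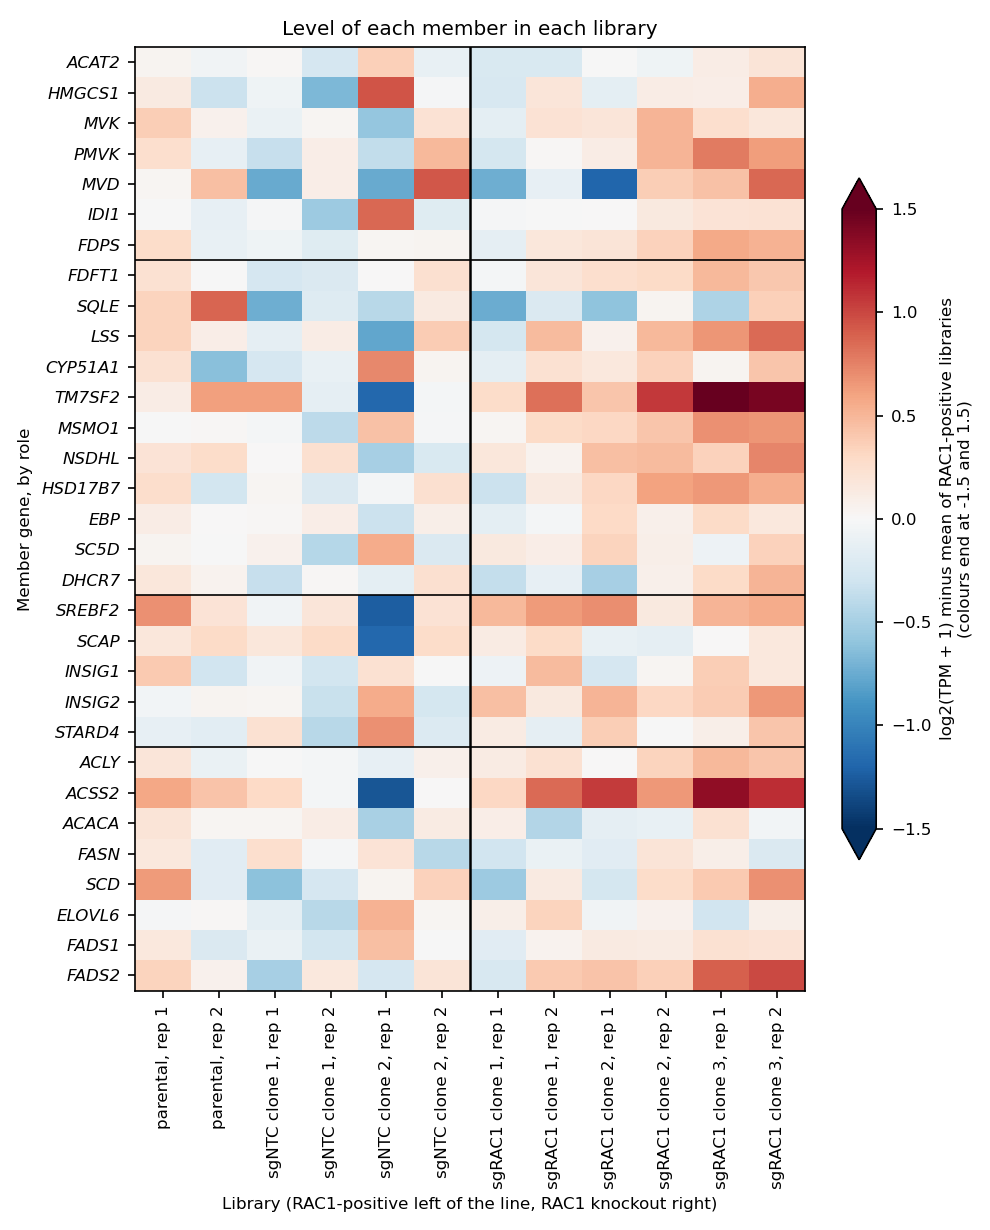
Level of the 31 tested members (rows, grouped by role with mevalonate enzymes at the top, then sterol enzymes, SREBP regulators and fatty acid enzymes) in the 12 libraries (columns), as log2(TPM + 1) minus the mean of the 6 RAC1-positive libraries, with colours ending at -1.5 and 1.5. The 2 columns of sgRAC1 clone 3 are mostly red, and sgNTC clone 2 replicate 1 is strongly blue for TM7SF2, SREBF2, SCAP and ACSS2.

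The mevalonate enzymes spanned levels from about 2 to 194 TPM, a scale already divided by transcript length. The most abundant was IDI1, the isopentenyl diphosphate isomerase, with a mean of 194 TPM over 12 libraries, followed by FDPS (142 TPM), which makes farnesyl diphosphate, and ACAT2 (141 TPM), the cytosolic thiolase that starts the pathway. The kinase PMVK (77.7 TPM) and HMGCS1 (65.3 TPM), which makes HMG-CoA, came next. The decarboxylase MVD (4.78 TPM) and mevalonate kinase MVK (1.90 TPM) were lowest. FDPS was 154 and 117 TPM in the parental cells, 122 and 112 in sgNTC clone 1 and 129 and 130 in sgNTC clone 2 (replicates 1 and 2). In the knockout clones FDPS was 116 and 142 TPM in clone 1, 146 and 162 in clone 2 and 189 and 183 in clone 3. Both libraries of clone 3 were above every RAC1-positive library, while clone 1 lay within their range. The line means of FDPS were 156 ± 28.5 TPM against 127 ± 9.71 TPM (SD, n = 3 lines each; limma, log2 difference 0.28, SE 0.14, adjusted p = 0.451). PMVK ranged from 56.3 to 117 TPM in knockout and from 51.9 to 94.97 TPM in RAC1-positive libraries (limma, log2 difference 0.30, SE 0.20, adjusted p = 0.572), with its highest values in clone 3. For the other 5 mevalonate enzymes the log2 differences ran from -0.06 (MVD) to 0.20 (MVK), and the genotypes overlapped in each. In all, 5 of the 7 differences were above 0, with a median of 0.09.

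The sterol enzymes held the member with the largest difference of the set, TM7SF2, which reduces the C14 double bond of sterol intermediates. Its level was low: 1.46 and 2.46 TPM in the parental cells, 2.47 and 1.07 in sgNTC clone 1 and 0 and 1.22 in sgNTC clone 2. In the knockout clones it was 1.74 and 3.01 TPM in clone 1, 2.02 and 3.74 in clone 2 and 6.12 and 5.06 in clone 3. The clone 3 libraries stood above all others, and the line means were 3.61 ± 1.73 TPM against 1.45 ± 0.730 TPM. The log2 difference of TM7SF2 was 0.94 (limma, SE 0.37, adjusted p = 0.349), and 0.75 without sgNTC clone 2 replicate 1 (adjusted p = 0.254). MSMO1, which removes methyl groups at carbon 4, was abundant and varied less. It was 136 and 138 TPM in the parental cells, 133 and 103 in sgNTC clone 1 and 186 and 134 in sgNTC clone 2. In the knockouts MSMO1 was 139 and 166 TPM in clone 1, 169 and 183 in clone 2 and 220 and 216 in clone 3. The genotypes overlapped only through sgNTC clone 2 replicate 1: without it, the lowest knockout library (139 TPM) was above the highest RAC1-positive one (138 TPM). The line means were 182 ± 33.2 TPM against 138 ± 21.0 TPM (limma, log2 difference 0.40, SE 0.16, adjusted p = 0.367; 0.47 and 0.175 without that library).

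The other sterol enzymes ran from abundant to scarce. Squalene synthase FDFT1 had a mean of 194 TPM, with libraries from 147 to 246 TPM, the isomerase EBP 139 TPM and DHCR7, which carries out the last reduction to cholesterol, 58.1 TPM. Squalene epoxidase SQLE followed at 55.3 TPM, then the C4 decarboxylating dehydrogenase NSDHL at 51.2 TPM, the desaturase SC5D at 42.7 TPM and HSD17B7, the C3 ketoreductase, at 30.7 TPM. The lanosterol demethylase CYP51A1 (5.48 TPM) and lanosterol synthase LSS (2.49 TPM) were scarce. Their log2 differences were 0.38 for LSS, 0.37 for NSDHL, 0.32 for HSD17B7, 0.26 for FDFT1, 0.17 for CYP51A1, 0.16 for SC5D, 0.11 for EBP, -0.02 for DHCR7 and -0.27 for SQLE, and none passed the test. HSD17B7 has a near-identical copy, HSD17B7P2, listed at 8.58 to 19.5 TPM, so reads may be shared between them. SQLE was the member with the most negative difference, and its highest library was parental replicate 2 at 106 TPM, against 33.8 to 73.9 TPM in the knockout libraries. Without the parental line that difference was 0.03. Over the 11 sterol enzymes, 9 differences were above 0, with a median of 0.26.

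Among the regulators, INSIG2, an anchor that keeps the SREBP and SCAP complex in the endoplasmic reticulum, had the lowest p of the set. INSIG2 was 40.9 and 43.3 TPM in the parental cells, 42.8 and 33.1 in sgNTC clone 1 and 62.1 and 34.9 in sgNTC clone 2. In the knockouts it was 57.9 and 46.7 TPM in clone 1, 60.01 and 52.3 in clone 2 and 55.0 and 66.4 in clone 3. All knockout libraries were above every RAC1-positive library except sgNTC clone 2 replicate 1, and the line means were 56.4 ± 4.19 TPM against 42.9 ± 5.30 TPM. The log2 difference of INSIG2 was 0.41 (limma, SE 0.12, adjusted p = 0.246), and 0.54 (SE 0.10, adjusted p = 0.0979) without that library, where 0.0749% of all genes were called higher, 0.0461% lower, and no member (7 at an unadjusted p under 0.05). In a limma fit of the other 11 libraries with the line as a random block, INSIG2 was the 1 member called higher (log2 difference 0.52, SE 0.11, adjusted p = 0.0238), where 2.68% of all genes were called higher and 0.887% lower. With all 12 libraries in that kind of fit, 1.69% of genes were called higher and 0.432% lower (1.42% and 0.42% with the replicate number as a block). No member was among them (9 members had an unadjusted p under 0.05). The correlation within lines was estimated at -0.014 (11 libraries), -0.030 (12 libraries) and 0.016 (12 with the replicate block). These fits therefore treated the 2 libraries of a line nearly as independent, and their p-values take little account of differences between clones. The share of all genes at an unadjusted p under 0.05 was not computed for them, nor for the line comparison without sgNTC clone 2 replicate 1.

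SREBF2, which encodes the SREBP that drives cholesterol synthesis and whose promoter holds the sterol element printed above, was near 2 TPM. It was 2.78 and 1.71 TPM in the parental cells, 1.27 and 1.68 in sgNTC clone 1 and 0 and 1.73 in sgNTC clone 2. In the knockouts it was 2.29 and 2.66 TPM in clone 1, 2.80 and 1.61 in clone 2 and 2.35 and 2.47 in clone 3. The genotypes overlapped, and the log2 difference of SREBF2 was 0.51 (limma, SE 0.28, adjusted p = 0.483). Without sgNTC clone 2 replicate 1 it was 0.26 (limma, SE 0.17, adjusted p = 0.474), and the batch 1 difference of SREBF2 was 0.25 rather than 0.76. SCAP, the sterol sensor that escorts SREBP, had a mean of 1.37 TPM and a log2 difference of 0.06, which was -0.19 without that library, where SCAP is listed at 0. INSIG1, the other anchor, had a mean of 11.3 TPM and a log2 difference of 0.11. STARD4, a carrier that moves sterol between membranes, had a mean of 12.3 TPM and a difference of 0.14. All 5 tested regulators had differences above 0 with all libraries in the fit, with a median of 0.14.

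In the fatty acid group the lowest p belonged to the enzymes that make cytosolic acetyl-CoA. ACSS2, which makes it from acetate, was 2.66 and 2.28 TPM in the parental cells, 2.01 and 1.40 in sgNTC clone 1 and 0 and 1.45 in sgNTC clone 2. In the knockouts ACSS2 was 2.03 and 3.41 TPM in clone 1, 4.04 and 2.82 in clone 2 and 5.13 and 4.27 in clone 3. Only clone 1 replicate 1 fell within the RAC1-positive range. The line means were 3.62 ± 1.00 TPM against 1.63 ± 0.872 TPM, with a log2 difference of 0.88 (limma, SE 0.33, adjusted p = 0.338) and of 0.67 (adjusted p = 0.217) without sgNTC clone 2 replicate 1. ACLY, which makes acetyl-CoA from citrate, was 77.4 to 96.2 TPM in RAC1-positive libraries and 84.6 to 119 TPM in knockout libraries, with the highest values in clone 3. Its line means were 102 ± 11.6 TPM against 84.6 ± 2.31 TPM (limma, log2 difference 0.26, SE 0.11, adjusted p = 0.356). The dot plots of INSIG2, MSMO1, TM7SF2, ACSS2, HMGCS1 and IDI1 show each library.

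**Figure D2:**
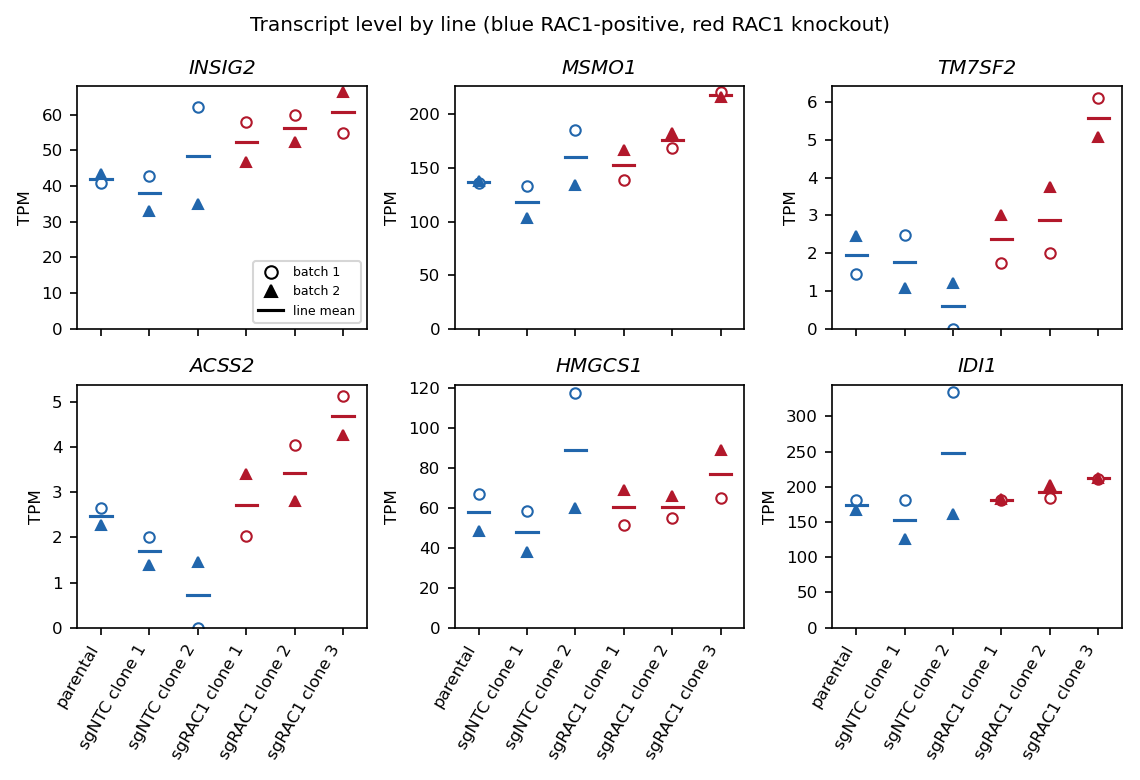
TPM of 6 members in each of the 6 lines (blue RAC1-positive, red knockout), with an open circle for batch 1, a triangle for batch 2 and a bar at the mean of the line's 2 libraries; every axis starts at 0. TM7SF2 and ACSS2 are at 0 in batch 1 of sgNTC clone 2, where HMGCS1 (117 TPM) and IDI1 (334 TPM) are at their highest.

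The remaining fatty acid enzymes did not separate the genotypes. The desaturase SCD was the most abundant, with a mean of 124 TPM, and varied widely, from 74.7 to 179 TPM in RAC1-positive and from 78.4 to 185 TPM in knockout libraries. FADS1 (41.5 TPM) and the elongase ELOVL6 (39.8 TPM) were intermediate. The carboxylase ACACA, which makes malonyl-CoA, had a mean of 7.45 TPM, the desaturase FADS2 5.21 TPM, and fatty acid synthase FASN only 1.25 TPM. Log2 differences were 0.47 for FADS2 (SE 0.25, adjusted p = 0.461), 0.11 for SCD, 0.10 for FADS1, 0.04 for ELOVL6, -0.07 for ACACA and -0.08 for FASN (limma). Of the 8 enzymes of this group, 6 had differences above 0, with a median of 0.11.

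The authors' deposited table, which compares the same genotypes by columns that DESeq2 writes, gives 4 members an adjusted p under 0.05, all higher in knockout, of 32 with a value. It calls 5.68% of its 15140 genes up and 4.06% down. In the authors' deposited table INSIG2 has a log2 fold change of 0.46 (adjusted p = 0.000389), MSMO1 0.42 (adjusted p = 0.00911), ACSS2 0.91 (adjusted p = 0.0204) and TM7SF2 1.14 (adjusted p = 0.0421). These 4 are among the 5 members with an unadjusted p under 0.05 in the comparison of lines, the other being ACLY. The sources used here do not say how the 2 libraries of a line entered that table.

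The set lay farthest above the RAC1-positive mean in clone 3. Each clone was compared with the mean of the 3 RAC1-positive lines in 1 limma fit of the 12 libraries. In sgRAC1 clone 1, 17 of 31 members were above that mean, with a median log2 difference of 0.04. That count rested on which library of clone 1 was used: without its replicate 1 it was 22 with a median of 0.15, and without its replicate 2 it was 12 with a median of -0.13. In clone 2 there were 23, with a median of 0.19 (0.28 without its replicate 1 and 0.13 without its replicate 2). In clone 3 there were 28, with a median of 0.39 (0.42 and 0.34). All genes had medians of 0.02, 0.02 and 0.03 in the same comparisons, and 52.5%, 53.0% and 52.9% of them were above that mean. No member was called in any of the 3. Of all genes, 0.432%, 0.167% and 0.927% were called higher in clones 1, 2 and 3 and 0.0518%, 0.0288% and 0.155% lower (0.484%, 0.196% and 1.08% in all). At an unadjusted p under 0.05 there were 0 members in clone 1, 5 in clone 2 and 11 in clone 3 (9.10%, 7.41% and 12.4% of all genes). With the replicate number as a block, 18 rather than 34 genes were called in clone 2, none of them a member.

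The members with an unadjusted p under 0.05 in clone 3 came from every role. They were PMVK and FDPS among the mevalonate enzymes, FDFT1, TM7SF2, MSMO1, NSDHL and HSD17B7 among the sterol enzymes, INSIG2 among the regulators, and ACLY, ACSS2 and FADS2 in the fatty acid group. The lowest adjusted p was that of MSMO1, at a log2 difference of 0.67 (limma, SE 0.15, adjusted p = 0.104). TM7SF2 differed by 1.53 (SE 0.39, adjusted p = 0.139), ACSS2 by 1.22 (SE 0.35, adjusted p = 0.196), FADS2 by 0.94 (SE 0.26, adjusted p = 0.176) and FDPS by 0.55 (SE 0.13, adjusted p = 0.129) in the same limma fit. FADS2 was 8.40 and 9.04 TPM in clone 3, above the 2.57 to 5.82 TPM of the other 10 libraries. ELOVL6, FASN and SQLE were the 3 members below the RAC1-positive mean in clone 3, by -0.10, -0.07 and -0.05 on the log2 scale.

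MSMO1 stood near the threshold in clone 3 and crossed it under other settings. It was called higher with median-of-ratios scaling (adjusted p = 0.0484), with upper quartile scaling (adjusted p = 0.0426) and without sgNTC clone 2 replicate 1 (adjusted p = 0.0389). Over all 17367 genes, those limma fits called 152, 136 and 221 higher in clone 3. Without sgNTC clone 2 replicate 2, whose line is then represented by replicate 1 alone, limma called 4 members higher in clone 3: ACSS2 (adjusted p = 0.0246), TM7SF2 (adjusted p = 0.0349), MSMO1 (adjusted p = 0.0491) and FDFT1 (adjusted p = 0.0499). That fit called 670 of 17367 genes in all, 537 of them higher. Its sgNTC clone 2 value rests on the library in which TM7SF2 and ACSS2 are listed at 0.

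**Figure D3:**
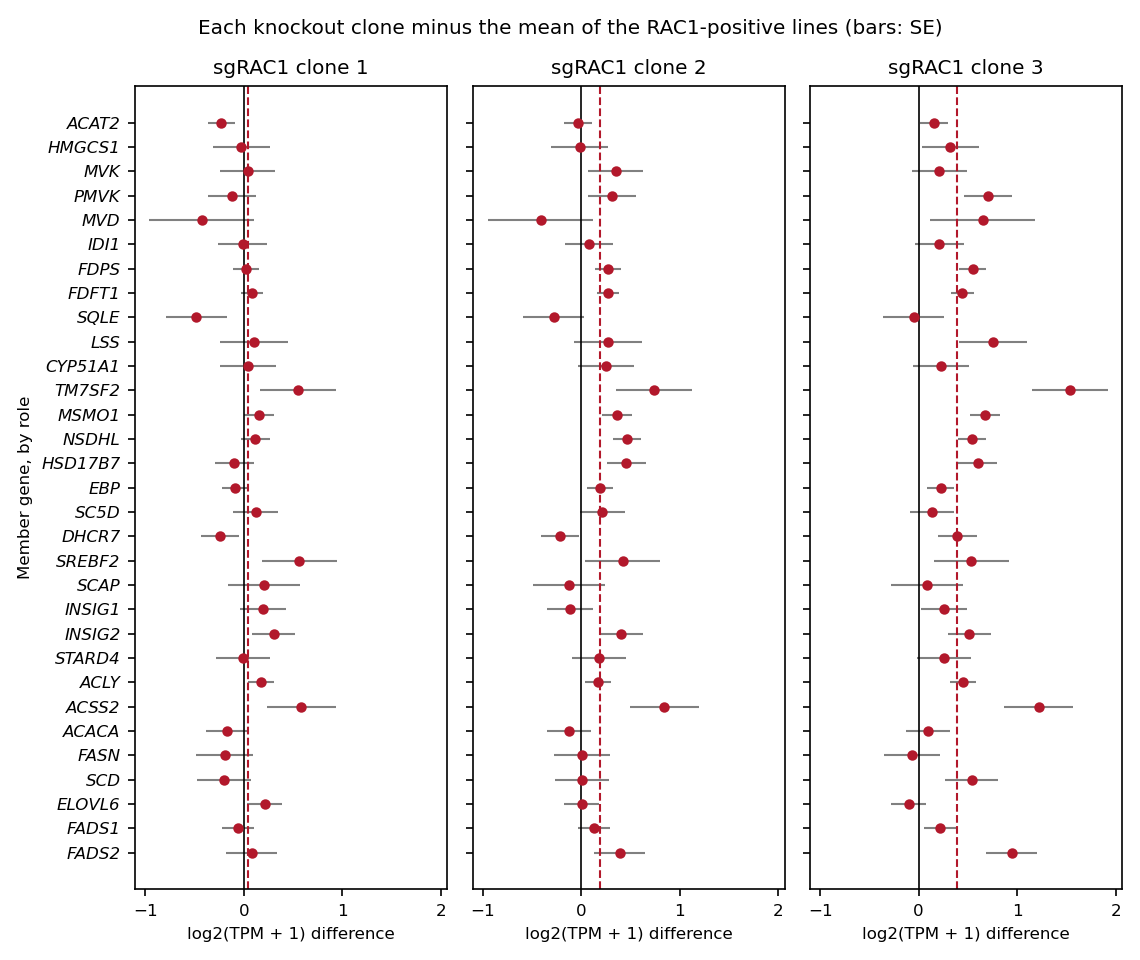
Log2(TPM + 1) difference of each tested member from the mean of the RAC1-positive lines in sgRAC1 clones 1, 2 and 3 (points, with SE bars from the limma fit of 12 libraries; solid line at 0, dashed line at the median of the members). The dashed line moves from 0.04 in clone 1 to 0.19 in clone 2 and 0.39 in clone 3.

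The 6 lines were also ordered by each member's mean log2 level. sgRAC1 clone 3 was the highest line for 19 of 31 members (61.3%), beside 20.3% of all genes, and the lowest for none. The lowest line was sgNTC clone 1 for 12 members and sgNTC clone 2 for 10, beside 20.2% and 28.3% of all genes. Summed over the members, the 2 clone 3 libraries had 2092 and 2198 TPM, and the other 10 had 1398 to 1916 TPM. The RAC1-positive lines also differed among themselves: the median member lay 0.06 above their common mean in the parental cells, 0.12 below it (-0.12) in sgNTC clone 1 and 0.05 above it in sgNTC clone 2. Clones 2 and 3 carry the same guide and were compared directly. Of 31 members, 26 were higher in clone 3, beside 51.1% of all genes. Their median log2 difference was 0.20 (0.01 over all genes), but 0 were called by limma, as were 0% of all genes. DHCR7 was the 1 member with an unadjusted p under 0.05 there (log2 difference 0.61, SE 0.24, adjusted p = 1; 3.32% of all genes had such a p).

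The genotypes were also compared within each batch. In batch 2, the 3 knockout libraries lay above the 3 RAC1-positive libraries for 16 of 31 members (51.6%), beside 12.7% of all genes. The 16 were HMGCS1, IDI1 and FDPS; LSS, CYP51A1, TM7SF2, MSMO1 and SC5D; INSIG1, INSIG2 and STARD4; and ACLY, ACSS2, ELOVL6, FADS1 and FADS2. ACACA was the 1 member with all knockout libraries below (background 7.82%). In batch 1, no member had all knockout libraries above (background 7.44%), and FASN had them all below (background 6.75%). The median log2 difference of the members was 0.34 in batch 2 and 0.13 in batch 1, beside 0.02 over all genes in each. Tested within a batch with limma, 0 members were called in either. Of all genes, 21 were called higher and 12 lower in batch 2, and 0 in batch 1. In batch 2, 27 of 31 member differences were above 0 (12 with an unadjusted p under 0.05, lowest adjusted p 0.199). In batch 1, 17 of 31 were above 0 (0 with an unadjusted p under 0.05, lowest adjusted p 0.664). Of all 17367 genes, 9084 were above 0 in batch 2 and 9052 in batch 1. The share of all genes at an unadjusted p under 0.05 was not computed within a batch.

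The library that stands apart, sgNTC clone 2 replicate 1, belongs to batch 1. Without it, batch 1 had MSMO1 and INSIG2 with all 3 knockout libraries above both RAC1-positive ones (background 12.9%) and SCAP and FASN with all below (background 12.7%). The median member difference in batch 1 was then 0.07, beside 0 over all genes, with 19 of 31 above 0. Batch 2 does not hold that library, so its values are the same with and without it.

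**Figure D4:**
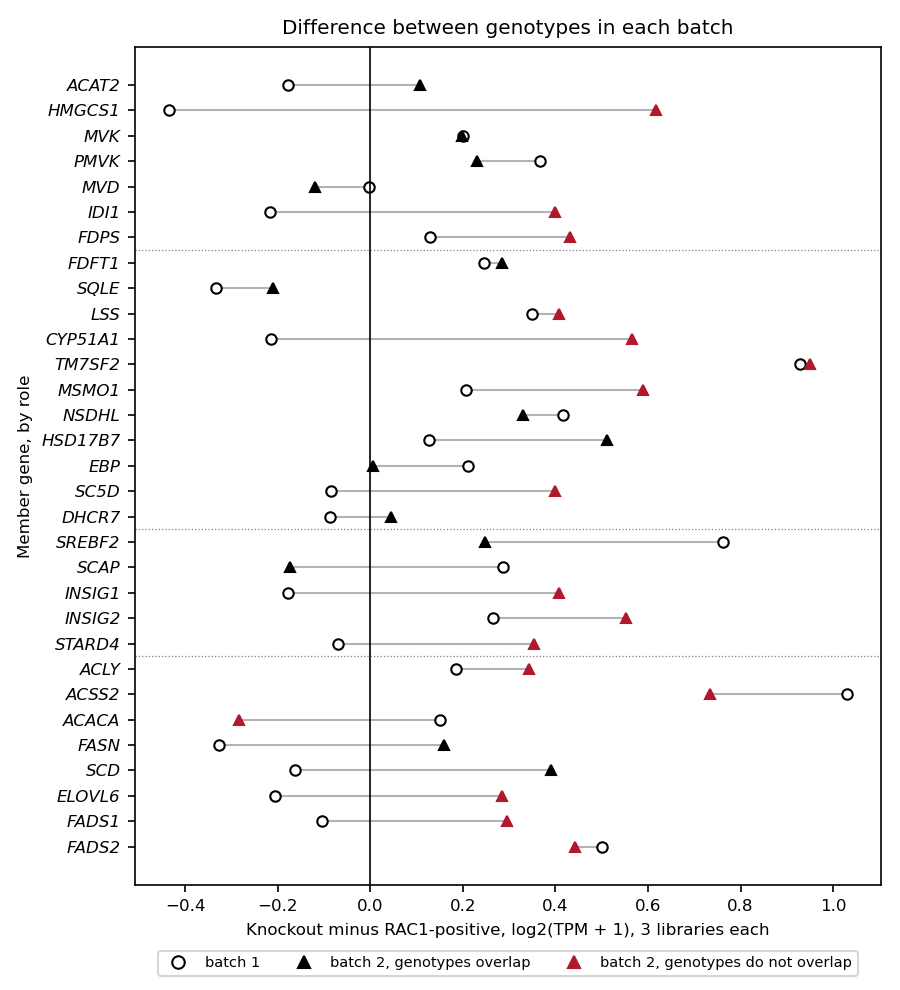
Knockout minus RAC1-positive difference of each tested member on the log2(TPM + 1) scale in batch 1 (open circles) and batch 2 (triangles, red where the 3 knockout and 3 RAC1-positive libraries do not overlap), with 3 libraries of each genotype in each batch. Most triangles lie right of 0, with a median of 0.34, while the circles scatter around a median of 0.13.

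HMGCS1 and IDI1 had batch differences of opposite sign in the 2 genotypes. HMGCS1 in batch 1 was 67.0 TPM in the parental cells, 58.1 in sgNTC clone 1 and 117 in sgNTC clone 2, and in batch 2 it was 48.3, 37.7 and 59.9 TPM. In knockout clones 1, 2 and 3 it was 51.4, 54.7 and 65.1 TPM in batch 1 and 68.9, 65.9 and 88.9 TPM in batch 2. Batch 2 was thus lower in each RAC1-positive line and higher in each knockout line. IDI1 was 182, 181 and 334 TPM in the RAC1-positive lines in batch 1 and 168, 125 and 162 TPM in batch 2. In the knockout clones IDI1 was 181, 184 and 211 TPM in batch 1 and 182, 202 and 213 TPM in batch 2, where clones 1 and 3 differed from batch 1 by only 0.01 on the log2 scale. The same pattern was seen in 1.34% of all genes, and the opposite one in 1.16% of all genes and no member. On the log2 scale the mean change from batch 1 to batch 2 of HMGCS1 was 0.37 in knockout and -0.68 in RAC1-positive lines (limma, difference 1.05, SE 0.19, adjusted p = 0.782). That of IDI1 was 0.052 in knockout and -0.56 in RAC1-positive lines (limma, difference 0.61, SE 0.24, adjusted p = 0.904). Without the sgNTC clone 2 line, whose batch 1 library stands apart, the difference was 0.91 for HMGCS1 (SE 0.16, adjusted p = 0.968) and 0.38 for IDI1 (SE 0.18, adjusted p = 1). With all 6 lines limma called 0% of all genes for this difference (2 of 31 members had an unadjusted p under 0.05, beside 4.36% of all genes). This last comparison was added after the batch values had been seen.

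MVD and SQLE were higher in batch 2 than in batch 1 in all 6 lines, as were 4.34% of all genes, and no member was lower in all 6 (1.21% of all genes). MVD in batch 1 was 4.45, 2.17 and 2.17 TPM in the RAC1-positive lines and 2.22, 1.34 and 6.24 TPM in the knockout clones. In batch 2 MVD was 6.30, 4.70 and 9.18 TPM and 3.90, 5.92 and 8.74 TPM. SQLE was 72.7, 34.1 and 42.8 TPM in the RAC1-positive lines in batch 1 and 106, 49.99 and 62.9 TPM in batch 2. In the 3 knockout clones SQLE went from 33.8, 37.5 and 41.3 TPM to 49.0, 59.1 and 73.9 TPM. In the limma comparison of batches with the line as a block, the difference was 0.60 for SQLE (SE 0.08, adjusted p = 0.0779) and 0.92 for MVD (SE 0.22, adjusted p = 0.253). No member was called there (3 had an unadjusted p under 0.05, as did 8.18% of all genes), and 0.0115% of all genes were called higher. With a filter of 5 TPM, which tests 9863 genes, SQLE passed (adjusted p = 0.0491).

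Genes around the pathway were followed in 4 further lists. Of the other sterol and isoprenoid synthesis genes, 11 of 12 were tested and 0 passed limma in knockout against RAC1-positive lines (1 at an unadjusted p under 0.05), with a median log2 difference of -0.00272. The lowest p there was that of GGPS1, which makes geranylgeranyl diphosphate. GGPS1 was 38.9 to 49.4 TPM in knockout and 26.6 to 44.3 TPM in RAC1-positive libraries, and its highest RAC1-positive value was in sgNTC clone 2 replicate 1. Its log2 difference was 0.37 (limma, SE 0.12, adjusted p = 0.266), and in the 11-library fit without that library it was called higher (0.45, adjusted p = 0.0263). That fit took the libraries of a line as nearly independent. PDSS1, of the ubiquinone side chain branch, had a difference of -0.37 (SE 0.17, adjusted p = 0.41).

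Of the 17 tested genes for sterol uptake, transport and storage (20 listed), 0 passed (3 at an unadjusted p under 0.05), 12 differences were above 0 and the median was 0.21. In 7 of the 17 the knockout lines lay above all RAC1-positive lines, beside 12% of all genes. In clone 3 this list had a median of 0.34, with 7 of 17 at an unadjusted p under 0.05 (12.4% of all genes). In batch 2 its median was 0.32, and 7 of 17 had all knockout libraries above (12.7% of all genes). Clone 3 medians were 0.00119 for other sterol and isoprenoid genes, 0.12 for SREBP processing and 0.17 for other fatty acid genes. In batch 2 those lists had 3 of 11, 3 of 13 and 5 of 23 genes above. NPC2, a lysosomal cholesterol carrier, was 158 to 219 TPM in knockout and 52.1 to 134 TPM in RAC1-positive libraries, with no overlap. Its log2 difference was 0.96 (limma, SE 0.20, adjusted p = 0.169), and both 12-library fits with the line as a random block called it higher (adjusted p = 0.0189, and 0.0258 with the replicate block). Those fits, too, took the libraries of a line as nearly independent. SOAT1, which esterifies cholesterol for storage, was 84.8 to 119 TPM in knockout and 47.4 to 99.3 TPM in RAC1-positive libraries (limma, log2 difference 0.49, SE 0.14, adjusted p = 0.241). All 13 genes of SREBP processing and degradation were tested and 0 passed (0 at an unadjusted p under 0.05), with a median of 0.14. RNF139, a ubiquitin ligase of the endoplasmic reticulum, had a difference of 0.19 (SE 0.10, adjusted p = 0.44) and ERLIN1, of the same membrane, -0.17 (SE 0.10, adjusted p = 0.508).

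Of the other genes of fatty acid synthesis and use, 23 of 29 were tested and 0 passed (3 at an unadjusted p under 0.05), with a median of 0.11. ELOVL7, a fatty acid elongase, was 4.75 to 9.57 TPM in knockout and 2.26 to 6.05 TPM in RAC1-positive libraries (limma, log2 difference 0.71, SE 0.21, adjusted p = 0.256). ACSL4, which activates long polyunsaturated fatty acids, had a difference of 0.36 (SE 0.13, adjusted p = 0.322). In the authors' deposited table NPC2 (log2 fold change 0.87), SOAT1 (0.51), GGPS1 (0.41), ELOVL7 (0.73) and ACSL4 (0.41) are higher in knockout at an adjusted p under 0.05. Of 11 genes that reflect RNA quality, 0 passed limma (2 at an unadjusted p under 0.05), 10 differences were above 0, and MT-CO1 (0.28, adjusted p = 0.232) and MALAT1 (0.36, adjusted p = 0.262) had the lowest p. In the authors' deposited table both are higher in knockout, MALAT1 by 0.36 (adjusted p = 0.0300) and MT-CO1 by 0.27 (adjusted p = 0.0385). Transcripts of mitochondrial genes made up 11.8% to 13.7% of TPM in knockout and 10.3% to 13.2% in RAC1-positive libraries. The part of these values in the members' results was not tested.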

How the data were processed

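RNA-seq libraries (160 ng RNA each, per the labels' protocols) of 6 DU145 lines were analysed from 1 table of TPM deposited by the authors. Reads were aligned with STAR 2.6.1d to GRCh38 after bcl2fastq, per the submitters' processing notes, while the sources used here name no counting tool, strand setting or annotation. The same table holds the authors' comparison: per the file headers, a mean normalized signal, a log2 fold change, its standard error and test statistic (each handled as a score), and p-values before and after adjustment, columns that DESeq2 writes and that the authors' notes name as a tool.

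TPM hold no read counts, so limma 3.58.1 (R 4.3.3, variances following mean level) was run on log2(TPM + 1), which understates fold changes of low genes. Genes averaging 1 TPM or more in 1 genotype or both were kept (17367), p-values were adjusted by Benjamini-Hochberg and the threshold was 0.05. Knockout against RAC1-positive lines used 1 value per line. Clone contrasts, and batch 2 against batch 1 with the line as a block, used all 12 libraries. The scripts were also run on simulated data with added changes. Those data held spread between libraries but no differences between clones, so they do not check the line comparison against that spread. The labels make replicate number the batch, so it pairs libraries across lines. Deviations of same-numbered libraries correlated at -0.13 to 0.30 over 15 pairs of lines (median 0.03), with 2 pairs over 0.1. No 2 libraries held identical values.

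The members and lists were chosen with earlier results of these data known. All members are named with their level. Full statistics are given for RAC1, members past the threshold and the 2 members per role with the lowest p, and for each other list up to 4 genes past the threshold or the 2 with the lowest p. HMGCS1, IDI1, MVD, SQLE, FADS2, FDFT1 and DHCR7 are described further because of their batch or clone values, seen first. Alternatives were other scalings, filters and pseudocounts, single batches, random line effects, the replicate block and leaving out each library or line. Some listed genes outside the set are counted but not named.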

Additional observations from a re-analysis of the deposited data

Results flagged for a closer look

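Among the 6 RAC1-positive libraries, sgNTC clone 2 replicate 1 stood far from the others for 6 members, by the gap to its nearest neighbour over the range of the group (above Dixon's 95% critical value). It was the highest for HMGCS1 at 117 TPM, with the next library at 67.0 TPM. It was also the highest for IDI1 at 334 TPM (next 182 TPM) and for INSIG2 at 62.1 TPM (next 43.3 TPM). It was the lowest for EBP at 106 TPM (next 133 TPM), for ACACA at 5.11 TPM (next 7.73 TPM) and for SCAP at 0 TPM (next 1.53 TPM). In all, 64 groups of 6 libraries were examined and chance marks about 1 in 20. The 6 marked groups all point to this library, which has the fewest genes above 0 (13608).

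HMGCS1 and IDI1 differed between genotypes in their change from batch 1 to batch 2, with every knockout line higher in batch 2 and every RAC1-positive line lower. The difference of changes was 1.05 for HMGCS1 and 0.61 for IDI1 on the log2 scale. The limma test of that difference, added after the values were seen, gave adjusted p-values of 0.782 and 0.904. Without the sgNTC clone 2 line the differences were 0.91 and 0.38 (adjusted p = 0.968 and 1).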

How the results depend on the processing

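In knockout against RAC1-positive lines, no member was called under any setting run except INSIG2 in the 11-library fit with the line as a random block and without sgNTC clone 2 replicate 1 (1 member, 620 genes). The number of genes called, 1 in the line comparison, was 0 with median-of-ratios scaling, upper quartile scaling, no filter, a pseudocount of 0.1 or batch 1 alone, 2 with a pseudocount of 5, 3 with a filter of 5 TPM and 33 in batch 2 alone. With 12 libraries and the line as a random block it was 369, and 320 with the replicate block added. Those fits and the 11-library one took the libraries of a line as nearly independent (correlation -0.030, 0.016 and -0.014). Leaving out a library or line gave 0 to 21 (21 without sgNTC clone 2 replicate 1). The median member difference was 0.34 in batch 2 alone. The replicate block cut the genes called in sgRAC1 clone 2 from 34 to 18 and changed no call of a member.

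Clone counts moved with single libraries: 25 to 313 genes in clone 1, 13 to 185 in clone 2 (10 with a pseudocount of 0.1) and 28 to 670 in clone 3, each highest without sgNTC clone 2 replicate 2 and lowest without sgRAC1 clone 1 replicate 2, sgNTC clone 1 replicate 1 and sgRAC1 clone 3 replicate 1. Members called in clone 3 were 1 (MSMO1) with median-of-ratios scaling (186 genes in all) and 1 (MSMO1) with upper quartile scaling (153 genes). They were 0 to 4 when a library was left out. Clone 3 against clone 2 gave 23 genes without a filter, 7 with a pseudocount of 5 and 0 to 7 when a library was left out. For batch 2 against batch 1, 22 genes and 1 member (SQLE) were called with a filter of 5 TPM, and 0 genes with median-of-ratios or upper quartile scaling, in either genotype alone, or without any 1 line (2 in the comparison as run).

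Of the 31 tested members, 15 kept the sign of their genotype difference under every setting that tested them (29 settings in all). Upper quartile scaling, which moved the median of all genes from 0.02 to 0.10, turned MVD (0.000833), DHCR7 (0.080), ACAT2 (0.067) and ACACA (0.016) positive. In batch 1 alone the sign turned for HMGCS1 (-0.43), IDI1 (-0.22), CYP51A1 (-0.21), SC5D (-0.084), INSIG1 (-0.18), STARD4 (-0.071), ACACA (0.15), SCD (-0.16), ELOVL6 (-0.21) and FADS1 (-0.10). In batch 2 alone it turned for DHCR7 (0.044), SCAP (-0.17), ACAT2 (0.11) and FASN (0.16), and in the 11-library fit for SCAP (-0.18) and ACAT2 (0.037). Leaving out 1 library or line gave ranges that cross 0 for HMGCS1 (-0.093 to 0.32), MVD (-0.42 to 0.22), IDI1 (-0.082 to 0.27), SQLE (-0.50 to 0.031), DHCR7 (-0.23 to 0.091), SCAP (-0.19 to 0.30), STARD4 (-0.00701 to 0.29), ACAT2 (-0.13 to 0.061), ACACA (-0.17 to 0.035), FASN (-0.19 to 0.018), SCD (-0.10 to 0.27) and ELOVL6 (-0.10 to 0.18). The cause was not tested. With TPM only, the depth behind scarce members such as FASN, SCAP and SREBF2 is unknown. A line left with 1 library is assumed to vary like the others. In the 250 bases before the start alone, 20 of 28 member genes (71.4%) held a CCAAT box, against 37% of all genes.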
